A study of Mus musculus with 15 samples.

Results

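The comparison described here set liver RNA of mice that carried a shut-off transgene for the Z variant of human alpha1-antitrypsin against liver RNA of their nontransgenic littermates. Its members were the 3 arrays titled Z1 and the 3 titled WT, 6 of the 15 arrays of the series, chosen by their labels and not by any measured value. Z-off mice, as the first group is called here, carried the transgene under hepatocyte-specific inducible control and drank doxycycline at 40 µg per mL from conception, which keeps the transgene silent. Littermates had neither the transgene nor doxycycline. All were described as adult males aged 3 months, and each group held 3 arrays labelled as biological replicates. The p-values rest on the spread between replicates within groups, pooled over the 5 groups of the series. The series also held mice with a shut-off transgene for the normal M variant under the same doxycycline (M-off), used below as the group most like Z-off. The 2 expressing groups without doxycycline (Z-on and M-on) entered the shared estimate of the spread. They also entered the choice of a probe set for each gene, the quantile normalization and a signal filter given below. Since Z-off differs from littermates in both the transgene and doxycycline, an effect of the line and an effect of the drug cannot be told apart in this comparison, and M-off shares the drug and a shut-off transgene of the other variant. Strain, founder line, time of day at collection and feeding state are not given in the sources used here. The array measures mouse genes, so the RNA of the human transgene was not analysed here.

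Alpha1-antitrypsin is a protease inhibitor that hepatocytes secrete into blood. The misfolded Z variant stays in the endoplasmic reticulum (ER), where it can load the folding and degradation machinery of the cell. Mouse hepatocytes also run a circadian clock, in which CLOCK and ARNTL activate the Per, Cry and Nr1d genes and output factors such as Dbp, PER and CRY proteins repress them in turn, and the output factors drive daily rhythms in heme, lipid, glucose and drug metabolism.

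Values are signals in the linear units of the deposited table, given in the order of replicates 1, 2 and 3, and changes are differences of log2(signal + 16), Z-off minus littermate, each with the SE, its standard error from the fit. The added constant shrinks the changes of dim genes. The median signal was 32 to 32.2 on the Z-off arrays, 42.3 to 44.9 on the littermate arrays and 30.4 to 31.3 on the M-off arrays, whereas the highest signal was 10200 to 12314 on Z-off and 16770 to 22995 on littermate arrays. Both the median and the highest signal thus lay higher on littermate arrays. The direction of many small changes therefore depends on how arrays are put on a common scale. For that reason each count is given both on the deposited scale and for genes called in the same direction on 3 scalings, namely as deposited, after quantile normalization and after centring each array on its median. The 3' to 5' ratio of the actin control probe sets was 1.8 to 2.06 on Z-off, 1.66 to 2.01 on M-off and 2.34 to 2.46 on littermate arrays, and the median of the spiked poly-A controls was 45.9 to 48.3 on Z-off and 33.8 to 37.6 on littermate arrays. The part of these array measures in the results was not tested. Of the arrays outside the groups compared, M-on 1 and M-on 2 went against the study's description of male mice, with Xist at 1149 and 226 and the Y-linked Eif2s3y at 0.4 and 1.3. The other 13 arrays had 13.7 to 74.3 for Xist and 42.1 to 438 for Eif2s3y. Without the M-on arrays 724 genes were called higher and 2745 lower in Z-off than in littermates. Over all genes, the correlation of log2 signals was 0.979 to 0.984 among Z-off arrays, 0.968 to 0.973 among littermate arrays, 0.947 to 0.961 between the groups and 0.972 to 0.981 between Z-off and M-off arrays.

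The hepatocyte markers were bright on all 6 arrays, and the signals of 8 of them summed to 47175 to 53838 in Z-off and 70737 to 83511 in littermates. Pancreatic digestive enzymes were high on the array Z-off 1. Ctrb1, a chymotrypsinogen, read 416, 34.8 and 1.8 in Z-off and 9.4, 3.5 and 29.8 in littermates, and Prss2, a trypsinogen, read 286, 43.5 and 13.5 in Z-off and 9.6, 52.8 and 46.7 in littermates. The 6 markers other than Cela1 summed to 1487, 258 and 45.3 in Z-off and 76, 137 and 144 in littermates, and 0 of 7 measured markers were called. Sums over neutrophil and lymphocyte markers were lower in Z-off, at 57.9 to 96.2 against 163 to 282 for 5 neutrophil markers, of which 3 were called lower, and 126 to 143 against 231 to 254 for 11 lymphocyte markers, of which 4 were called lower. Of all genes 20.3% were called lower. Sums over 10 Kupffer cell and macrophage markers overlapped, at 1482 to 2454 in Z-off and 2267 to 3690.0 in littermates, with 1 called lower. Ngp, a neutrophil granule protein, and Cd79a, a B cell receptor subunit, were the members of these lists called lower under all 3 scalings. In whole liver RNA, fewer cells of a type and less RNA per cell cannot be told apart. The lower quartile of all signals was also lower on Z-off arrays, at 7.7 to 8.1 against 13.3 to 14.7 on littermate arrays. After quantile normalization the median change relative to all genes was -0.09 for lymphocyte and -0.49 for neutrophil markers, with 1 called lower in each. The part of array scale in these sums was not tested.

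In all, 3019 of 12393 genes, 24.4%, were called between Z-off and littermates (adjusted p under 0.05, limma with Benjamini-Hochberg adjustment). On the deposited scale 507 genes (4.09%) were higher and 2512 (20.3%) lower in Z-off, so that 16.8% of the calls were higher. That share was 37.5% after quantile normalization and 61% after median centring, and the median change of all genes was -0.19, -0.06 and 0.10 on the 3 scalings. Called under all 3 were 386 genes (3.11%) higher and 686 (5.54%) lower. Large changes were fewer: 104 called genes were higher and 622 lower by more than 1 on the log2 scale, and 9 were higher and 12 lower by more than 2. By quartile of mean signal, from dim to bright, 460, 1249, 513 and 290 genes were called lower. In the quartile of genes with mean signals of 15.5 to 49.7, 64 were called higher and 1249 lower, while in the brightest quartile 252 were higher and 290 lower, or 152 and 46 under all 3 scalings. Without Z-off 1, the array with pancreatic signals, 320 genes were called higher and 1748 lower, and without Z-off 2 the counts were 299 and 1810.

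**Figure D1:**
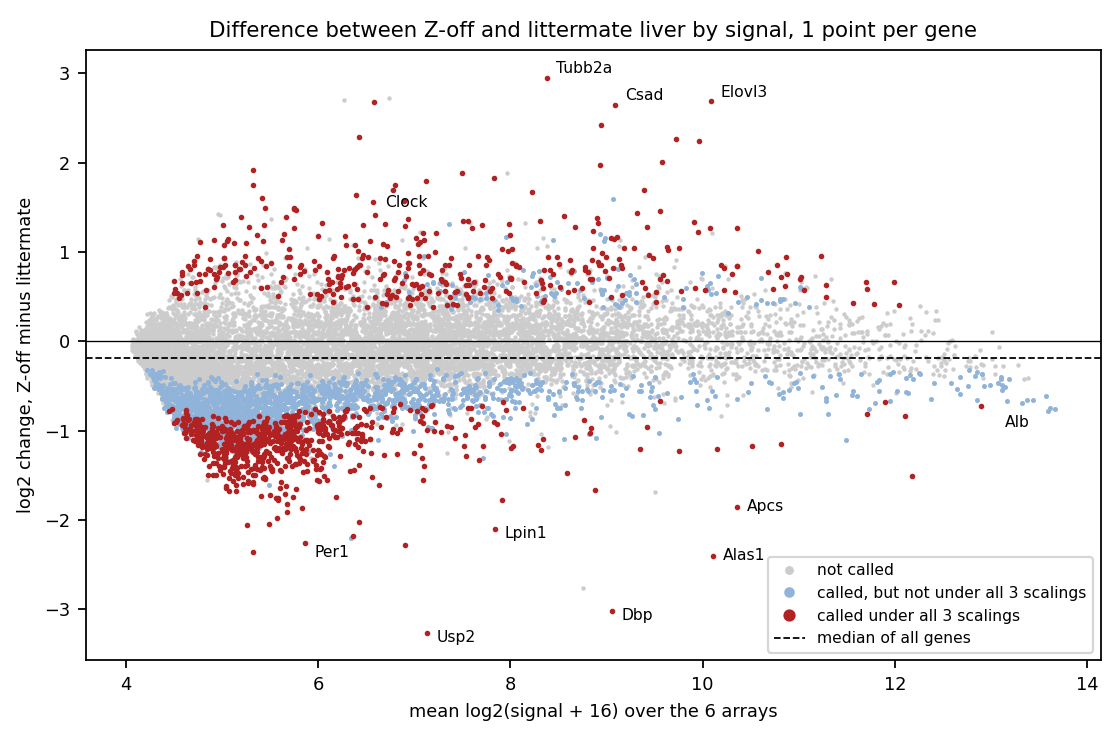
Change between Z-off and littermates (vertical axis, log2 units) against the mean log2(signal + 16) of the 6 arrays (horizontal axis), with 1 point per gene for 12393 genes. Grey genes were not called, blue genes were called on the deposited scale but not under all 3 scalings, and red genes were called under all 3. The dashed line is the median of all genes at -0.19, and Usp2 at -3.26 and Tubb2a at 2.95 are the extremes that were called.

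Genes of the circadian clock and its outputs held the 2 largest of the named falls, those of Usp2 and Dbp. Of 15 measured core clock genes, 2 were called higher and 5 lower, 2 and 3 of them under all 3 scalings. Of 17 measured clock output genes, 2 were called higher and 10 lower, 2 and 9 of them under all 3. The shares of all genes were 4.09% higher and 20.3% lower, or 3.11% and 5.54% under all 3 scalings. The median change was -0.19 for the core list and -0.89 for the output list relative to the median of all genes. Both lists were written with earlier results of these data known, so their shares and medians are description only. Without Z-off 1, Z-off 2 or littermate 1 the lower core calls were 3, and without Z-off 3 they were 7. The lower output calls ranged from 8 to 10 with any array of the 2 groups left out, and the 2 higher calls became 1 without Z-off 1, Z-off 2 or littermate 3.

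Of the 3 activators of the clock measured, Clock and Arntl were higher in Z-off, and Npas2 was not called (log2 difference 0.47, adjusted p = 0.133). Clock, a transcription factor that pairs with ARNTL, read 151, 132 and 141 in Z-off and 33.8, 50.1 and 47.3 in littermates (log2 difference 1.41 with SE 0.34, adjusted p = 0.00863). Its partner Arntl read 114, 107 and 29.6 in Z-off and 21.2, 4.6 and 27.4 in littermates (log2 difference 1.49 with SE 0.36, adjusted p = 0.0102), with Z-off 3 close to littermate 3. All Z-off values of both genes lay above all littermate values. The Clock call was lost with an added constant of 1, and its other probe set, at 0.16, was not called. The Arntl call was lost when only the 2 groups entered the fit. M-off arrays read 109.9, 129 and 172 for Clock and 66.2, 55.9 and 43.3 for Arntl, also above the littermates.

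The repressors of the Per family were lower. Per1 read 12.9, 3.2 and 17.7 in Z-off and 154.5, 100.5 and 88.5 in littermates (log2 difference -2.26 with SE 0.27, adjusted p = 2.20e-04). Per2 read 23.7, 7.7 and 44.0 in Z-off and 74.6, 104 and 84.8 in littermates (log2 difference -1.43 with SE 0.29, adjusted p = 0.00352). Per3 read 10.4, 11.7 and 54.2 in Z-off and 88.5, 89.7 and 101.5 in littermates (log2 difference -1.55 with SE 0.34, adjusted p = 0.00582). The groups did not overlap for any of the 3, and Z-off 3 had the highest value of its group each time. In M-off liver Per1 was also low, at 14.5, 21.5 and 15.9, whereas Per2 read 108, 95.4 and 89.0, within or near the littermate range. The Per2 difference between Z-off and M-off did not pass the test (log2 difference -1.56 with SE 0.29, adjusted p = 0.0535). Csnk1d and Csnk1e, kinases that mark PER proteins for degradation, had changes of -0.62 and -0.58 and were called on the deposited scale but not under all 3 scalings. The Csnk1d call was lost without Z-off 1, Z-off 2 or littermate 1, and that of Csnk1e without any array of the 2 groups other than Z-off 3. The 4 other Csnk1d probe sets ranged from -0.25 to 0.27. The other 8 core genes were not called. Cry1 and Cry2, the partners of PER, had changes of 0.41 (SE 0.32) and -0.45 (SE 0.21), and Nr1d1, the REV-ERB repressor of Arntl, had 0.40 (SE 0.35).

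Clock factors act through short DNA elements: CLOCK and ARNTL bind E-boxes, DBP, TEF and NFIL3 bind D-boxes, and ROR and REV-ERB proteins bind ROR elements. The promoter windows below are shown because each belongs to a clock gene called under all 3 scalings and holds such an element. They are the RefSeq windows of GRCm38.p6 from 250 bases before to 50 after a gene's start, 300 bases in all, written 5' to 3' along the gene with the element in capitals. The windows of Per1 at chr11:69098699-69098998 on the plus strand and Tef at chr15:81802423-81802722 on the plus strand hold the E-box CACGTG, 166 and 127 bases before the start. That of Per3 at chr4:151044616-151044915 on the minus strand holds the D-box TTATGTAA at 2 places. Those of the higher genes Nfil3 at chr13:52980990-52981289 on the minus strand and Arntl at chr7:113207261-113207560 on the plus strand hold the ROR element TAGGTCA, on the opposite strand in Nfil3 and after the start in Arntl.
Per1: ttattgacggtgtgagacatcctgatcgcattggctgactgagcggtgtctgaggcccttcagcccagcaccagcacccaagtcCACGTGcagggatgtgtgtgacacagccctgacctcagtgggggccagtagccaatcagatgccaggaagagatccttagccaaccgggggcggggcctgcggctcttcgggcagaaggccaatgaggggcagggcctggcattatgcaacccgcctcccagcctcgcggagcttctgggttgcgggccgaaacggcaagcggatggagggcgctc
Tef: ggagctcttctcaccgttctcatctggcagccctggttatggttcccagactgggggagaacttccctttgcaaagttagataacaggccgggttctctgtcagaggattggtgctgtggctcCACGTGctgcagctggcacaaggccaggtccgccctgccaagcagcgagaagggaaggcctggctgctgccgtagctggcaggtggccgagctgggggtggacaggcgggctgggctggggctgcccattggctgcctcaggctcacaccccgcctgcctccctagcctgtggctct
Per3: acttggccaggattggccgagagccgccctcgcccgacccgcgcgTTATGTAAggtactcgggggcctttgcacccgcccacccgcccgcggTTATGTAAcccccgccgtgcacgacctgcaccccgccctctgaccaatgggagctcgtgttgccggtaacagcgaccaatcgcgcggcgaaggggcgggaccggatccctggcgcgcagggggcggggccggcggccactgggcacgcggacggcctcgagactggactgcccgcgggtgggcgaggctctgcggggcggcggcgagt
Nfil3: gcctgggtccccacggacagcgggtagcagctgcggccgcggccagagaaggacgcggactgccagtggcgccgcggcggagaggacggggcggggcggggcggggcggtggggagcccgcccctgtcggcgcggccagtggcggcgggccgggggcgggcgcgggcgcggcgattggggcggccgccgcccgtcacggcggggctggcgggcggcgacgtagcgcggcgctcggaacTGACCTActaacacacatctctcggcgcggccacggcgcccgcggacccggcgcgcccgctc
Arntl: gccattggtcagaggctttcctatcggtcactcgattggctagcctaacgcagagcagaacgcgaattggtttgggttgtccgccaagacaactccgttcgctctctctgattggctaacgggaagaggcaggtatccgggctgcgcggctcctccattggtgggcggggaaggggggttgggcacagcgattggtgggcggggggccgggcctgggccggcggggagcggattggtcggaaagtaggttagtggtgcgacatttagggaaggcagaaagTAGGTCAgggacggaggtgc

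The 3 elements were searched on both strands in all windows. Of the 12 clock and output genes lower under all 3 scalings, 10 had windows, 16 in all, and 4 windows (25%) of Per1, Tef and Tspan4 held the E-box, against 7.15% of all 32851 windows. The D-box stood in 1 of the 16 (6.25%), against 0.938% of all, and the ROR element in 0. Of the 4 genes higher under all 3 scalings, 3 had windows, 6 in all, and 2 (33.3%) held the ROR element, against 2.61% of all, with 0 for the other 2 elements. Windows of a gene can overlap, these numbers are small, and a match is a description of the sequence only.

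Clock output genes that bind the D-box differed in both directions. Dbp, the D-box activator, read 81.6, 65.0 and 815 in Z-off and 1421, 1670.5 and 1424 in littermates (log2 difference -3.02 with SE 0.60, adjusted p = 0.00347). Z-off 1 and 2 were far below Z-off 3, which itself lay below every littermate. Tef, a related D-box activator, read 189, 197 and 409 in Z-off and 875, 770.0 and 819 in littermates (log2 difference -1.66 with SE 0.27, adjusted p = 0.00108). Its 2 other probe sets had changes of -0.38 and 0.43. Nfil3, which represses at the same element, went the other way and read 337, 403 and 104 in Z-off and 73.1, 66.3 and 41.0 in littermates (log2 difference 1.80 with SE 0.52, adjusted p = 0.0233). Its call was lost without Z-off 1, Z-off 2 or littermate 3, and with an added constant of 1. The third activator, Hlf, read 118, 128 and 129 in Z-off and 124, 137 and 147 in littermates and was not called (log2 difference -0.11, adjusted p = 0.618), but its other probe set was called at -0.95.

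Usp2, a ubiquitin protease, had the largest fall of all named genes and read 34.9, 4.7 and 72.3 in Z-off and 506, 375 and 387 in littermates (log2 difference -3.26 with SE 0.43, adjusted p = 3.41e-04). Noct, a circadian phosphatase of dinucleotide cofactors, read 54.5, 11.8 and 65.4 in Z-off and 588, 188 and 132 in littermates (log2 difference -2.28 with SE 0.64, adjusted p = 0.0191). Its call was lost without Z-off 2 or littermate 1. Wee1, a kinase that delays entry into mitosis, read 30.2, 45.8 and 48.8 in Z-off and 169.7, 139.8 and 167 in littermates (log2 difference -1.61, adjusted p = 0.00152). Tsc22d3, a glucocorticoid-induced leucine zipper, read 333.5, 252 and 327 in Z-off and 815, 517 and 608 in littermates (log2 difference -1.03, adjusted p = 0.00618). Every Z-off array of both lay below every littermate. Tspan4, a tetraspanin, had a change of -1.22. Gys2, the liver glycogen synthase, had a change of -1.08 and was not called after median centring, nor without Z-off 1, Z-off 2 or littermate 1. The groups did not overlap in any of these genes.

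Alas1, the rate-limiting enzyme of heme synthesis, fell with a wide spread and read 1703.5, 138 and 402 in Z-off and 2330.3, 2545 and 2720.0 in littermates (log2 difference -2.40 with SE 0.59, adjusted p = 0.0103). M-off arrays read 2029.9, 1558 and 3223, near the littermates. The difference between Z-off and M-off did not pass the test (log2 difference -2.19 with SE 0.59, adjusted p = 0.164). The call against littermates was lost when only the 2 groups entered the fit. Lpin1, a phosphatidate phosphatase of triglyceride synthesis, read 76.0, 98.3 and 113 in Z-off and 867, 297 and 373.5 in littermates (log2 difference -2.10 with SE 0.39, adjusted p = 0.0023). Elovl3, an elongase of very long fatty acids with a known daily rhythm, rose from 391, 321 and 557 in littermates to 2775, 3281 and 2287 in Z-off (log2 difference 2.69 with SE 0.69, adjusted p = 0.0131), and the SE was 0.34 without the M-on arrays. M-off arrays read 85.9, 43.7 and 54.4 for Usp2, 165, 130.0 and 118 for Lpin1, 57.0, 30.9 and 42.3 for Wee1 and 1825, 2857 and 2026 for Elovl3, outside the littermate range on the same side as Z-off. The clock and output lists held 0 genes called between Z-off and M-off, where 0.129% of all genes were called. Differences of -2.19 for Alas1, -2.03 for Noct and -1.24 for Dbp did not pass that test.

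**Figure D2:**
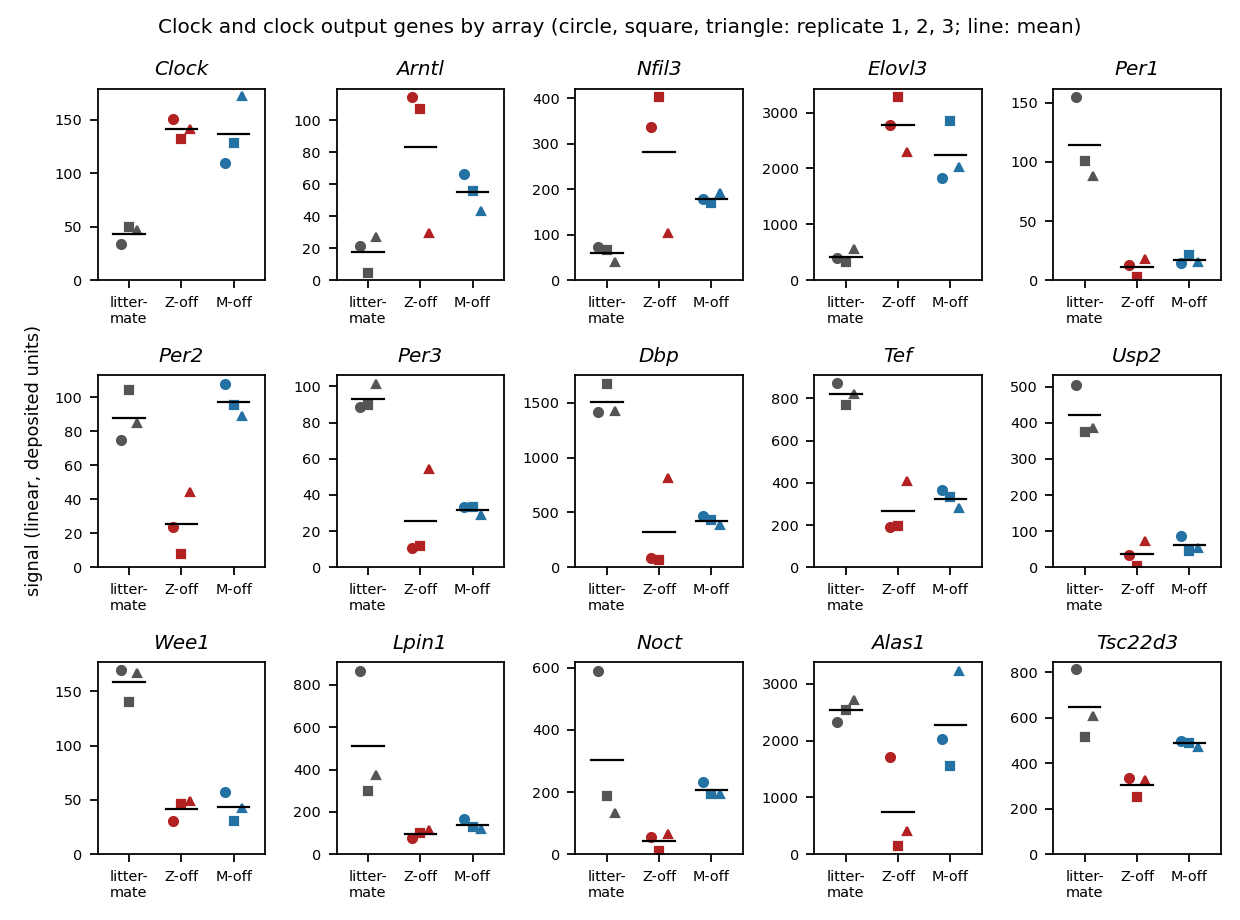
Signal of 15 clock and clock output genes (vertical axes from 0, linear deposited units) in littermates, Z-off and M-off; circles, squares and triangles are replicates 1, 2 and 3 and lines are group means. Dbp in Z-off reads 81.6, 65.0 and 815 against 1421, 1670.5 and 1424 in littermates, and triangles of Z-off stand apart from its other 2 points for Arntl, Nfil3 and Dbp.

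Among the 12 largest rises, several genes were not clock genes of the lists. Tubb2a, a beta-tubulin, read 1297, 1192 and 479.5 in Z-off and 84.2, 102 and 129 in littermates (log2 difference 2.95 with SE 0.46, adjusted p = 9.77e-04), with all Z-off arrays above all littermates. Its other probe set had a change of 0.47. Mmd2, a membrane protein of the progestin and adipoQ receptor family, read 392, 269 and 106 in Z-off and 5.2, 79.6 and 10.7 in littermates (log2 difference 2.68 with SE 0.82, adjusted p = 0.0295). Its call was lost without Z-off 1, Z-off 2, littermate 1 or littermate 3, while its other probe set was called at 3.03. Evi5, a regulator of Rab GTPases and the cell cycle, read 1279.9, 1367.5 and 814 in Z-off and 225, 178 and 193 in littermates (log2 difference 2.42 with SE 0.42, adjusted p = 0.00169), and its other probe set had 0.88. Rbbp9, a serine hydrolase, read 168, 150.2 and 210.2 in Z-off and 25.5, 36.7 and 11.1 in littermates (log2 difference 2.29 with SE 0.24, adjusted p = 1.78e-04). The Z-off values of both genes were several times those of any littermate. Dnase2a, the acid DNase of lysosomes, read 2345, 2195 and 1206 in Z-off and 231, 738 and 289 in littermates (log2 difference 2.27 with SE 0.48, adjusted p = 0.00476). M-off arrays had lower values than Z-off, at 463.5, 568 and 1001, but that difference did not pass the test (log2 difference 1.49 with SE 0.48, adjusted p = 0.266). Clpx, the unfolding subunit of the mitochondrial ClpXP protease, read 953, 1009 and 911 in Z-off and 215.5, 221 and 258 in littermates (log2 difference 1.98 with SE 0.28, adjusted p = 5.98e-04). Cldn1, a tight junction protein, read 403, 515 and 339 in Z-off and 90.8, 132 and 94.5 in littermates (log2 difference 1.83 with SE 0.29, adjusted p = 0.00108). Its 3 other probe sets ranged from -0.24 to 0.86.

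The largest falls outside the clock lists included secreted and membrane proteins. Apcs, the serum amyloid P component, read 783, 669 and 594 in Z-off and 3949.5, 1825 and 2116 in littermates (log2 difference -1.85 with SE 0.32, adjusted p = 0.0016) and is taken up again below. Scara5, a ferritin receptor, read 13, 39.8 and 17.4 in Z-off and 444, 102 and 80.0 in littermates (log2 difference -2.20, adjusted p = 0.0258), but was not called after quantile normalization or centring. It also lost the call without Z-off 1, Z-off 3 or littermate 1, while its other probe set was called at -1.59. Scara5 was the exception among the 24 genes with the largest rises and falls, of which 23 were called under all 3 scalings. With any of the 6 arrays left out, 20 of the 24 kept the call. Aif1l, an actin-binding protein, read 35.9, 22.9 and 22.3 in Z-off and 126, 196 and 157 in littermates (log2 difference -2.02 with SE 0.28, adjusted p = 4.81e-04). Its 2 other probe sets had changes of -0.33 and -0.10. St3gal5, the synthase of the ganglioside GM3, read 130.3, 76.3 and 147 in Z-off and 509.6, 295 and 531 in littermates (log2 difference -1.78, adjusted p = 0.00594). Htr3a, a subunit of a serotonin-gated channel, read 13, 29.8 and 31.4 in Z-off and 93.8, 124 and 137 in littermates (log2 difference -1.74, adjusted p = 4.62e-04). No Z-off array of these 3 genes reached a littermate value. Rgs16, a regulator of G protein signalling, read 0.4, 5.7 and 32.4 in Z-off and 35.1, 57.5 and 114 in littermates (log2 difference -1.61 with SE 0.43, adjusted p = 0.0163). It was not called after quantile normalization, and the call was lost without Z-off 1, Z-off 2 or littermate 3. Its 2 other probe sets were both called lower, at -2.12 and -2.09.

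**Figure D3:**
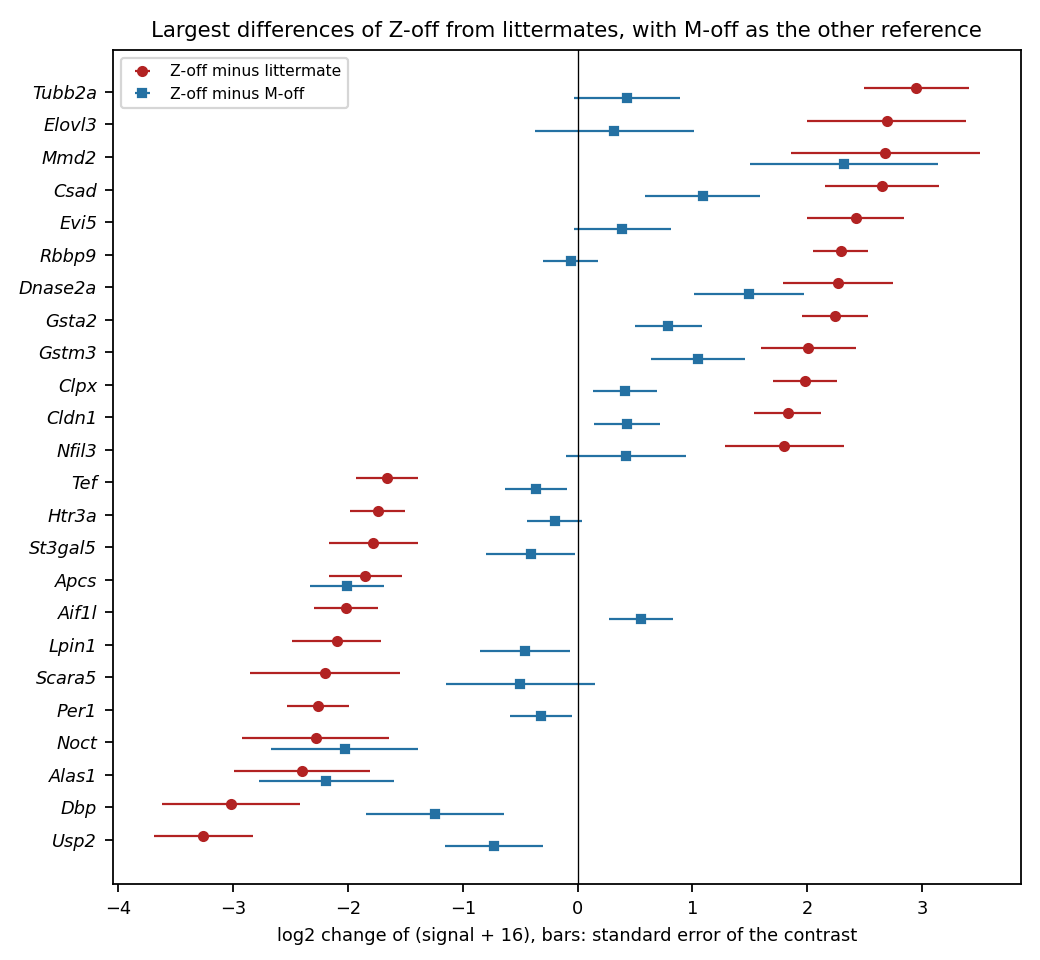
Log2 change of the 12 largest rises and 12 largest falls (horizontal axis, log2 units, bars 1 SE either side) for Z-off minus littermate in red circles and Z-off minus M-off in blue squares. Both contrasts share the Z-off arrays. Apcs stands at -1.85 and -2.01 in the 2 contrasts, while Rbbp9 stands at 2.29 and -0.06.

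Glutathione transferases were among the largest rises. Gsta2, an alpha-class glutathione transferase, read 2207, 2069 and 2199.5 in Z-off and 727, 460.2 and 259 in littermates (log2 difference 2.24 with SE 0.29, adjusted p = 3.31e-04), with M-off between the groups at 1048, 1168 and 1555. The difference of Gsta2 between Z-off and M-off did not pass the test (log2 difference 0.79 with SE 0.29, adjusted p = 0.358). Gstm3, a mu-class transferase, read 2834.5, 1736.5 and 708 in Z-off and 261, 435 and 426 in littermates (log2 difference 2.01 with SE 0.41, adjusted p = 0.00394), with a wide spread in Z-off. Both families hold near-identical members whose probe sets may share signal. In the list of conjugating enzymes 4 of 41 measured members were called higher and 1 lower, 2 and 0 of them under all 3 scalings. Of all genes 4.09% were called higher and 20.3% lower, 3.11% and 5.54% under all 3. The median of the list was 0.36 above that of all genes. Inmt, an N-methyltransferase, was the called member that was lower (log2 difference -0.76, adjusted p = 0.0299), though not under all 3 scalings, nor without Z-off 1, Z-off 2, littermate 1 or littermate 2.

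NRF2 is the transcription factor of the oxidant response. Of its targets and other antioxidant enzymes, 6 of 31 measured members were called higher and 4 lower, 6 and 2 of them under all 3 scalings. The shares of all genes were 4.09% and 20.3%, or 3.11% and 5.54% under all 3 scalings. Gclc, the catalytic subunit that limits glutathione synthesis, read 1620.1, 1910.5 and 1136 in Z-off and 715.5, 466 and 614 in littermates (log2 difference 1.34 with SE 0.19, adjusted p = 5.85e-04). Ephx1, microsomal epoxide hydrolase, read 2491, 2818.5 and 2644 in Z-off and 1997, 1519 and 1359 in littermates (log2 difference 0.72, adjusted p = 0.00728). Tkt, Gsr, Srxn1 and Abcc2 were the other higher members. The 3 other Srxn1 probe sets ranged from -0.69 to 0.06. The call of Srxn1 was lost without Z-off 1, Z-off 2 or littermate 1, and that of Abcc2 without Z-off 1, Z-off 2 or littermate 3. Slc7a11, the cystine importer, was lower at 4.8, 4.7 and 6.4 in Z-off and 30.5, 22.4 and 28.0 in littermates (log2 difference -1.01, adjusted p = 0.00101). These Z-off values lay below the lower quartile of their arrays, and the change was -2.15 with an added constant of 1 and -0.39 with 64. Fth1, the ferritin heavy chain, was also lower at 6420.4, 5832 and 5563 in Z-off and 9534, 9690.4 and 10181 in littermates (log2 difference -0.72, adjusted p = 0.00108), although its other probe set had a change of 0.03. Nqo1, a commonly used marker of NRF2 activity, read 45.9, 39.9 and 36.2 in Z-off and 45.8, 39.8 and 36.6 in littermates and was not called (adjusted p = 0.996). Hmox1, heme oxygenase 1, was not called either (log2 difference 0.27, adjusted p = 0.367).

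Iron and heme genes included several of the above: 3 of 27 measured members were called higher and 5 lower, 2 and 4 of them under all 3 scalings. Among all genes the shares were 4.09% higher and 20.3% lower, or 3.11% and 5.54% under all 3 scalings. Beside Alas1 and Fth1, Slc39a14, a transporter of zinc and iron, read 321, 276 and 338 in Z-off and 509, 654 and 732 in littermates (log2 difference -0.97, adjusted p = 0.0045), with its other probe set at -0.31. Cp, the ferroxidase ceruloplasmin, read 3613, 2979.6 and 3299 in Z-off and 4843, 5857 and 7106 in littermates (log2 difference -0.83, adjusted p = 0.00205), while its 6 other probe sets ranged from -0.58 to 0.17. Both were lower on every Z-off array. Cpox, a later enzyme of heme synthesis, read 413, 457 and 576 in Z-off and 243, 242 and 276 in littermates (log2 difference 0.87, adjusted p = 0.00601). Aco1, the iron-regulated cytosolic aconitase, read 2422, 2240.1 and 2626 in Z-off and 1379, 1667 and 1283.5 in littermates (log2 difference 0.75, adjusted p = 0.00567), with its other probe set at 0.13. Both were called higher under all 3 scalings.

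In the amino acid and urea list 5 of 35 measured members were called higher and 1 lower, 4 and 0 of them under all 3 scalings, against 4.09% higher and 20.3% lower over all genes. Csad, which makes hypotaurine on the way to taurine, read 1735, 1839 and 769 in Z-off and 134, 341 and 176 in littermates (log2 difference 2.65 with SE 0.50, adjusted p = 0.0026). Littermate 2 was above the other littermates but below every Z-off array. Gldc, the glycine decarboxylase of mitochondria, read 799, 784.5 and 679.5 in Z-off and 275, 239 and 332 in littermates (log2 difference 1.38 with SE 0.24, adjusted p = 0.00157). Cbs, which makes cystathionine, read 2674, 2429.6 and 1515 in Z-off and 887, 1015 and 1319.5 in littermates (log2 difference 1.01, adjusted p = 0.00947). Oat, ornithine aminotransferase, read 4445, 3447 and 2402 in Z-off and 2307.5, 1427 and 1509.7 in littermates (log2 difference 0.96, adjusted p = 0.0174). The call of Oat was lost without Z-off 1, Z-off 2, littermate 2 or littermate 3. The M-off values of Csad, 587, 563 and 748, also lay above the littermates.

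Lipid genes moved in both directions. In fatty acid and triglyceride synthesis 2 of 32 measured members were called higher and 7 lower, 2 and 4 of them under all 3 scalings. Of all genes 4.09% were called higher and 20.3% lower, 3.11% and 5.54% under all 3 scalings. Thrsp, a lipogenic nuclear protein also known as Spot 14, read 2883, 1528 and 4619 in Z-off and 6827, 8391 and 8367 in littermates (log2 difference -1.51 with SE 0.29, adjusted p = 0.00256). Lpin2, a paralog of Lpin1, read 308, 512 and 452 in Z-off and 1079, 779 and 1098 in littermates (log2 difference -1.20, adjusted p = 0.0021), with 2 other probe sets at -0.61 and -0.49. Elovl2, an elongase of polyunsaturated fatty acids, rose and read 3076.5, 2765 and 1972 in Z-off and 1204, 1332 and 1464.5 in littermates (log2 difference 0.94, adjusted p = 0.0032). Fasn and Scd1, fatty acid synthase and stearoyl-CoA desaturase, were not called, with changes of -0.19 (SE 0.28) and 0.02 (SE 0.30). The other Scd1 probe set, at 0.73, was not called either. In fatty acid oxidation and ketogenesis 2 of 40 measured members were called higher and 9 lower, 1 and 0 of them under all 3 scalings, and the lower share was near the 20.3% of all genes. The higher gene under all 3 was Pdk4, an inhibitor of pyruvate dehydrogenase, which read 104, 129 and 26.9 in Z-off and 13.7, 14.7 and 23.0 in littermates (log2 difference 1.47, adjusted p = 0.0171). The call was lost without Z-off 1 or Z-off 2. Among the lower calls was Fabp1, a bright fatty acid carrier, which read 10695.5, 8586 and 10438 in Z-off and 13064.5, 14163 and 18417 in littermates. Its change of -0.61 turned to 0.03 after quantile normalization and was not called without Z-off 2.

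Of sterol and bile acid genes, those called under all 3 scalings were higher in Z-off. Over all genes 4.09% were called higher and 20.3% lower. In cholesterol synthesis 2 of 17 measured members were called higher and 1 lower, 2 and 0 of them under all 3 scalings. Pmvk, phosphomevalonate kinase, read 226, 208 and 184 in Z-off and 73.4, 139 and 116 in littermates (log2 difference 0.86, adjusted p = 0.00429). Cyp51, lanosterol demethylase, was also higher (log2 difference 0.80, adjusted p = 0.015), a call lost without Z-off 1 or littermate 1. Insig2, which holds the sterol sensor in the ER, read 1269.9, 1768 and 1497 in Z-off and 655, 462 and 823 in littermates (log2 difference 1.23 with SE 0.30, adjusted p = 0.0101). In its list of sterol sensing and cholesterol uptake 1 of 12 measured members was called higher and 1 lower, 1 and 0 of them under all 3 scalings. The lower calls of these 2 lists were Lss at -0.57 and Srebf1 at -0.66, both lost without some single arrays. In bile acid synthesis 3 of 21 measured members were called higher and 3 lower, 3 and 0 of them under all 3 scalings. Slc27a5 at -0.57 and Cyp46a1 at -0.96 were among the lower members. Cyp8b1, which sets the share of cholic acid, read 1062, 1260.0 and 817 in Z-off and 752, 289.5 and 230.4 in littermates (log2 difference 1.44, adjusted p = 0.0202), a call lost without Z-off 1, Z-off 2, littermate 2 or littermate 3. Cyp39a1, an oxysterol hydroxylase, read 109, 221 and 94.5 in Z-off and 43.5, 29.0 and 24.2 in littermates (log2 difference 1.64, adjusted p = 0.00799). M-off arrays overlapped the littermates at 57.1, 23.1 and 42.7, but the difference between Z-off and M-off did not pass the test (log2 difference 1.43 with SE 0.39, adjusted p = 0.163). Cyp7a1, the rate-limiting enzyme, read 734, 373 and 283 in Z-off and 814, 1064 and 202 in littermates and was not called (log2 difference -0.39, adjusted p = 0.736), with values that overlap widely. Of the cytochrome P450 genes of families 1 to 4, 1 of 41 measured members was called higher and 8 lower, 1 and 0 of them under all 3 scalings, a lower share near that of all genes.

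In glucose handling 1 of 25 measured members was called higher and 8 lower, 0 and 4 of them under all 3 scalings. Called higher and lower were 4.09% and 20.3% of all genes, or 3.11% and 5.54% under all 3 scalings. Pfkfb3, which makes the activator of glycolysis fructose 2,6-bisphosphate, read 5.6, 4.0 and 25.4 in Z-off and 68.6, 78.9 and 68.2 in littermates (log2 difference -1.75 with SE 0.35, adjusted p = 0.00376). Slc37a4, the glucose 6-phosphate transporter of the ER, read 546, 684.5 and 1030.1 in Z-off and 1669.5, 1745 and 1707 in littermates (log2 difference -1.21 with SE 0.22, adjusted p = 0.00229). All Z-off arrays were below all littermates for both. Insr, the insulin receptor, read 8.0, 17.9 and 2.0 in Z-off and 41.3, 43.6 and 46.1 in littermates (log2 difference -1.29, adjusted p = 8.58e-04), although its other probe set had a change of 0.02. Insr was dim in Z-off, and its change was -2.48 with an added constant of 1 and -0.56 with 64. Pklr, liver pyruvate kinase, read 99.0, 133 and 269 in Z-off and 296, 463 and 374 in littermates (log2 difference -1.19, adjusted p = 0.0052), with 2 other probe sets at -0.92 and 0.29. Pck1 and G6pc, both of gluconeogenesis, were not called against littermates, with changes of 0.07 (SE 0.18) and 0.03 (SE 0.46).

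Genes of secreted plasma proteins were called lower at shares not far from the 20.3% of all genes, and few stayed called under all 3 scalings. Among acute phase proteins 0 of 33 measured members were called higher and 8 lower, 0 and 2 of them under all 3 scalings, namely Apcs and Cp. Of complement and coagulation genes, 0 of 34 measured members were called higher and 8 lower, 0 and 1 of them under all 3 scalings. That gene was Hgfac, an activator of hepatocyte growth factor, which read 537, 608 and 599 in Z-off and 954, 932 and 916 in littermates (log2 difference -0.67, adjusted p = 0.00108). Of apolipoproteins and lipoprotein assembly genes, 2 of 23 measured members were called higher and 4 lower, 1 and 0 of them under all 3 scalings. Alb, serum albumin, read 9642, 8416 and 8479 in Z-off and 12758, 13392 and 15837 in littermates (log2 difference -0.66, adjusted p = 0.00413), with no overlap of the groups but no call under all 3 scalings. Saa1 and Hp, acute phase reactants, had log2 differences of -0.27 and -0.38 and were not called (adjusted p = 0.718 and 0.0932).

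The mouse Serpina1 genes are the counterparts of the human transgene and were lower on the deposited scale. Serpina1b read 9236, 7408 and 7551 in Z-off and 11713, 12348.5 and 15180.4 in littermates (log2 difference -0.69 with SE 0.14, adjusted p = 0.00323). Serpina1c read 10135, 9668 and 10027 in Z-off and 14864.5, 15945 and 20064 in littermates (log2 difference -0.76 with SE 0.13, adjusted p = 0.00166). Neither was called after quantile normalization. The Serpina1 genes are near-identical, so that signal cannot be assigned to a single copy with certainty. A probe set shared by Serpina1a and Serpina1d read 8489, 7515 and 7755 in Z-off and 7343, 7694 and 7946 in littermates, which overlap. A probe set shared by Serpina1b, Serpina1c and Serpina1e read 3169, 2307 and 2709 against 1784, 2000 and 1997, higher on every Z-off array. These shared probe sets were not tested. In the list of serpins 0 of 19 measured members were called higher and 5 lower, 0 and 0 of them under all 3 scalings. The shares of all genes were 4.09% higher and 20.3% lower.

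Genes of the ER stress response were called at shares below the 24.4% of all genes. Among ER chaperones and folding enzymes 2 of 36 measured members were called higher and 4 lower, 0 and 0 of them under all 3 scalings. Hspa5, the chaperone BiP, read 4636, 3836.5 and 3351 in Z-off and 2835, 5459.9 and 7010.0 in littermates (log2 difference -0.29 with SE 0.29, adjusted p = 0.498), within the wide littermate range. Dnajb9, its cochaperone, read 1365, 655 and 923 in Z-off and 703, 1369.5 and 1282 in littermates (log2 difference -0.19, adjusted p = 0.675). Xbp1, a transcription factor of the unfolded protein response, read 2213, 2181 and 2851 in Z-off and 3123, 3488 and 2432 in littermates (log2 difference -0.31, adjusted p = 0.174), while 1 of its 3 other probe sets was called lower and the 3 ranged from -0.58 to 0.00. Ddit3, the factor CHOP, read 87.6, 53.1 and 59.3 in Z-off and 82.3, 95.3 and 85.5 in littermates (log2 difference -0.35, adjusted p = 0.16). The groups overlapped for all 4 genes. Herpud1, a component of ER-associated degradation, was the member of its list that fell under all 3 scalings, and read 1421.5, 957 and 1245 in Z-off and 3342, 2431.5 and 2328 in littermates (log2 difference -1.15 with SE 0.21, adjusted p = 0.00199), with its other probe set at -0.57. Rnf5, an ER ubiquitin ligase, was the one that rose (log2 difference 0.50, adjusted p = 0.0117), a call lost without Z-off 2. In that list 1 of 25 measured members was called higher and 2 lower, 1 and 1 of them under all 3 scalings. Of ATF4 targets and other integrated stress response genes, 3 of 37 measured members were called higher and 4 lower, 2 and 1 of them under all 3 scalings, and Atf4 itself was not called (log2 difference -0.03, adjusted p = 0.887).

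Other protein homeostasis and mitochondrial lists held up to 5 genes called higher and up to 9 lower each, against 4.09% and 20.3% of all genes. In the proteasome list 5 of 37 measured members were called higher and 0 lower, 2 and 0 of them under all 3 scalings. Psmd11, a lid subunit, had the smallest p of the list and read 2053, 2336.5 and 2002 in Z-off and 1203.5, 1331 and 1175 in littermates (log2 difference 0.78, adjusted p = 0.00266), while its 5 other probe sets ranged from -0.56 to 0.69. Of mitochondrial chaperones and proteases, 2 of 26 measured members were called higher and 1 lower, 2 and 0 of them under all 3 scalings. The higher genes were Clpx and Hspa9, the mitochondrial Hsp70, which read 1563, 1412 and 1345 in Z-off and 949, 936.5 and 997 in littermates (log2 difference 0.57, adjusted p = 0.00233), while 3 other probe sets of Hspa9 ranged from -0.81 to 0.55. In respiratory complex I 2 of 33 measured members were called higher and 2 lower, 1 and 0 of them under all 3 scalings. In complexes II to V 3 of 41 measured members were called higher and 3 lower, 3 and 0 of them under all 3 scalings. Of mitochondrial ribosomal proteins, 3 of 74 measured members were called higher and 9 lower, 2 and 0 of them under all 3 scalings. Of cytosolic ribosomal proteins, 1 of 42 measured members was called higher and 8 lower, 0 and 1 of them under all 3 scalings. That gene was Rps18, which read 2741, 2506.5 and 2331 in Z-off and 4046, 4355 and 4906 in littermates (log2 difference -0.81, adjusted p = 6.02e-04). Its 5 other probe sets ranged from -0.60 to 0.10. Cytosolic heat shock genes had 2 called higher and 0 lower among 24.

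Immune, matrix and cell cycle genes were called lower more often than higher, as was the whole set of genes. The whole set had 4.09% called higher and 20.3% lower, or 3.11% and 5.54% under all 3 scalings. Shares called lower in the interferon, cell cycle and immediate early lists were not far from that 20.3%, whereas the matrix share was larger. The median change of the matrix list relative to all genes was 0.00, however. After quantile normalization 6 of its members were called higher and 5 lower. Of all genes with mean signals of 15.5 to 49.7, 1249 of 3098 were called lower. The part of signal level in the matrix share was not tested. In the matrix and stellate cell list 3 of 36 measured members were called higher and 13 lower, 3 and 5 of them under all 3 scalings. Mmp2, a gelatinase, read 13.8, 15.2 and 16.1 in Z-off and 60.9, 61.9 and 46.8 in littermates (log2 difference -1.22 with SE 0.13, adjusted p = 1.83e-04), with its other probe set at -0.41. Timp1, an inhibitor of matrix metalloproteinases, read 11.4, 9.6 and 1.3 in Z-off and 31.0, 32.9 and 34.1 in littermates (log2 difference -1.08, adjusted p = 0.00369). Col4a1, Col5a2 and Mmp14, collagens and a membrane protease, were the higher members. The call of Col4a1 was lost without Z-off 1, Z-off 2 or littermate 1, and that of Col5a2 without Z-off 1, littermate 1 or littermate 2. Of interferon response genes, 1 of 33 measured members was called higher and 7 lower, 1 and 2 of them under all 3 scalings. Oas2, an activator of antiviral RNase L, and Trim30a were lower, with log2 differences of -1.33 and -1.33 (adjusted p = 0.00445 and 0.00225). Bst2, tetherin, was higher and read 883.5, 689 and 451.5 in Z-off and 372.5, 337 and 398 in littermates (log2 difference 0.79, adjusted p = 0.011), a call lost without Z-off 1. H2-DMa, a chaperone of MHC class II loading, was the called member of 8 in its list and was lower (log2 difference -1.0, adjusted p = 0.00409). In the cell cycle list 1 of 35 measured members was called higher and 9 lower, 1 and 3 of them under all 3 scalings. Rrm2, a ribonucleotide reductase subunit, read 23.2, 34.2 and 33.7 in Z-off and 83.4, 84.5 and 96.9 in littermates (log2 difference -1.18, adjusted p = 5.79e-04), with 2 other probe sets at -1.27 and -0.07. Cdkn1b, the cyclin-dependent kinase inhibitor p27, was the higher one and read 200.3, 106 and 108 in Z-off and 59.8, 49.5 and 52.7 in littermates (log2 difference 1.09, adjusted p = 0.00168), although its other probe set had a change of -0.03. Of immediate early genes, 1 of 34 measured members was called higher and 9 lower, 1 and 2 of them under all 3 scalings. Those called under all 3 were the transcription factors Egr2, Fosl2 and Klf6. The other Egr2 probe set had a change of 0.05. Klf6 lost the call without Z-off 1, Z-off 2, littermate 1 or littermate 3. Neutrophil and lymphocyte marker sums were also lower in Z-off, as given above, and their part in these lists was not tested.

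**Figure D4:**
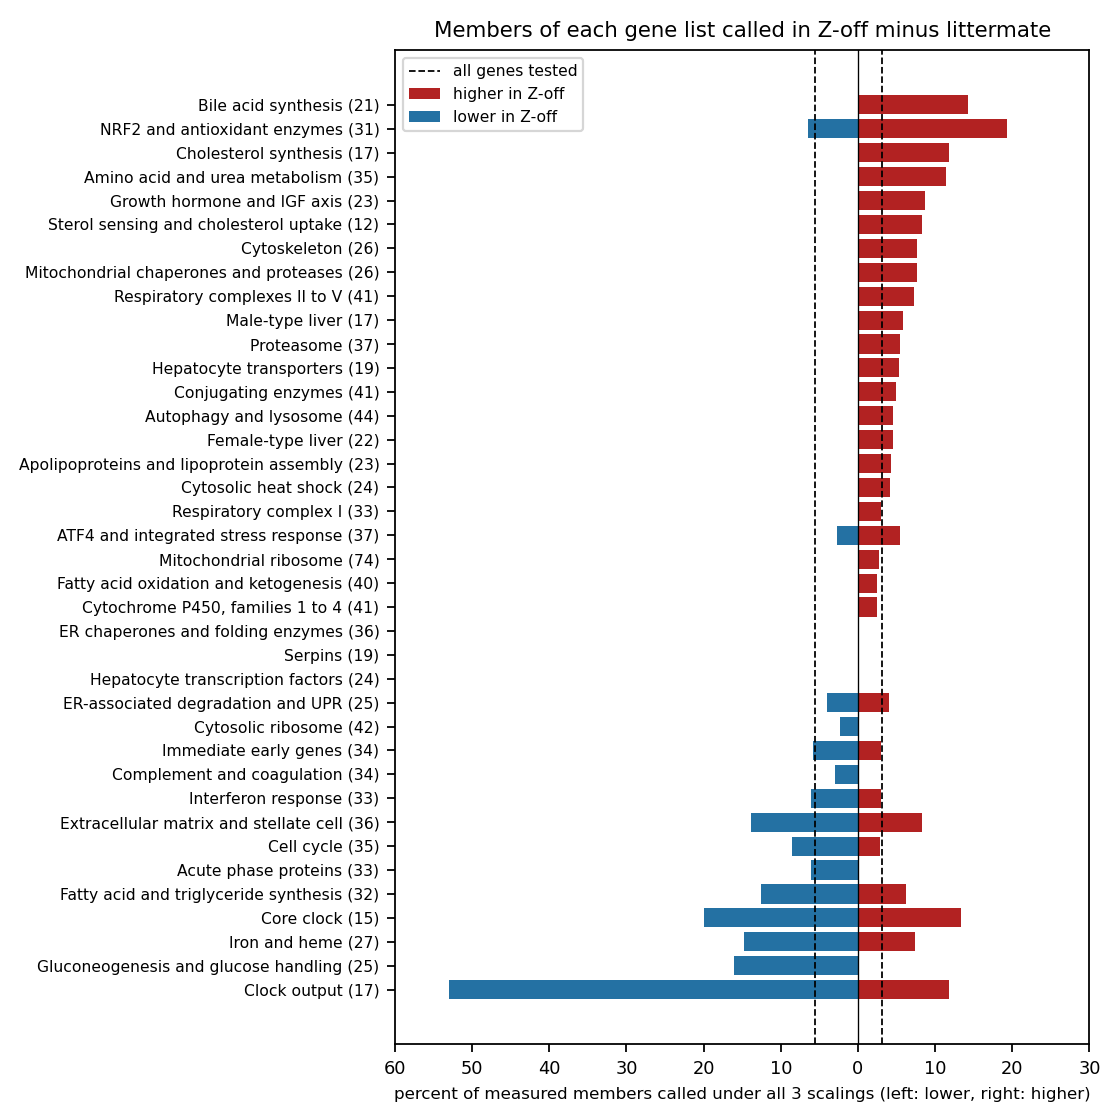
Percent of measured members of each gene list (number measured in brackets, lists of at least 10) called under all 3 scalings in Z-off minus littermate, with higher members to the right in red and lower members to the left in blue. Dashed lines mark the same shares over all genes, 3.11% higher and 5.54% lower. Clock output, with 9 of 17 members lower, extends farthest from the lower line. The lists were written with earlier results of these data known, so the shares are description only.

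Against M-off, the group that shares doxycycline and a shut-off transgene, far fewer genes were called. They were 16 of 12393 genes, 0.129%, with 10 higher and 6 lower in Z-off, while 1169 genes had an unadjusted p under 0.05. By the labels, these groups differ in the variant of the transgene. Whether they also differ in founder line, time of day at collection or feeding state is not given. Both comparisons use the same Z-off arrays. The count depended on single arrays, with 52 calls without Z-off 3, 6 without Z-off 2, 6 without M-off 1 and 7 without M-off 3. Of 24 measured cytosolic heat shock genes 0 were called, but their median difference was -0.58. Their signals summed to 9830 to 11856 in Z-off, 17006 to 18028 in M-off and 10370 to 14363 in littermates. Of 36 ER chaperones and folding enzymes 0 were called, with a median of -0.24. Their sums were 33808.5 to 39957 in Z-off, 43448 to 47441 in M-off and 31454 to 48599 in littermates. These sums were not tested.

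Pik3c2g, a class II phosphoinositide 3-kinase of liver, read 99.8, 120.0 and 116 in Z-off, 14.5, 19.1 and 16.8 in M-off and 67.3, 86.8 and 71.7 in littermates (Z-off minus M-off: log2 difference 1.96 with SE 0.16, adjusted p = 1.19e-04), and kept this call under every alternative that was run. M-off was thus the low group. Z-off lay above the littermates (log2 difference 0.49, adjusted p = 0.0416), but that call was lost without any array of these 2 groups other than littermate 2. Hsd17b6, a hydroxysteroid dehydrogenase, read 1039, 1061 and 1178 in Z-off, 113, 278.5 and 384 in M-off and 548, 579 and 707 in littermates (log2 difference 2.16 with SE 0.31, adjusted p = 0.0169), but its other probe set had a difference of 0.01. The call was lost without Z-off 2 and when only the 2 groups entered the fit. Cdh1, E-cadherin, read 515, 597 and 451 in Z-off, 112, 108 and 113 in M-off and 123, 169 and 168 in littermates (log2 difference 2.07 with SE 0.36, adjusted p = 0.0491), with Z-off above both. Vldlr, the receptor of very low density lipoprotein, read 221, 180.4 and 76.6 in Z-off, 9.7, 9.6 and 9.8 in M-off and 22.2, 54.5 and 46.7 in littermates (log2 difference 2.66 with SE 0.44, adjusted p = 0.0456), with 3 other probe sets at 0.11 to 1.36. The calls of Cdh1 and Vldlr were lost when any array of the 2 groups other than Z-off 3 was left out, and after quantile normalization.

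Of the lower genes, Apcs read 783, 669 and 594 in Z-off, 2851, 2833.5 and 2658.5 in M-off and 3949.5, 1825 and 2116 in littermates (log2 difference -2.01 with SE 0.32, adjusted p = 0.0336), so that Z-off was below both other groups. Its call against M-off was lost without any array of the 2 groups other than Z-off 3. Asic5, an acid-sensing channel also known in bile ducts, read 57.9, 44.7 and 50.2 in Z-off, 184, 363.5 and 182 in M-off and 35.6, 36.0 and 40.4 in littermates (log2 difference -1.89 with SE 0.26, adjusted p = 0.0147). Lactb, a mitochondrial serine protease-like protein, read 148.5, 181 and 186 in Z-off, 482, 389.6 and 465 in M-off and 268, 180.2 and 177 in littermates (log2 difference -1.30 with SE 0.23, adjusted p = 0.0491). In both, M-off stood above Z-off and littermates, which overlapped for Lactb. Tmem41b, an ER scramblase, read 169, 105 and 130.5 in Z-off, 314.5, 304 and 233 in M-off and 157, 211 and 195 in littermates (log2 difference -1.0 with SE 0.18, adjusted p = 0.0491). Its 4 other probe sets had changes of 0.11 to 0.17. The call of Asic5 was lost without Z-off 2 and when only the 2 groups entered the fit, and those of Lactb and Tmem41b were lost under several alternatives, quantile normalization among them.

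**Figure D5:**
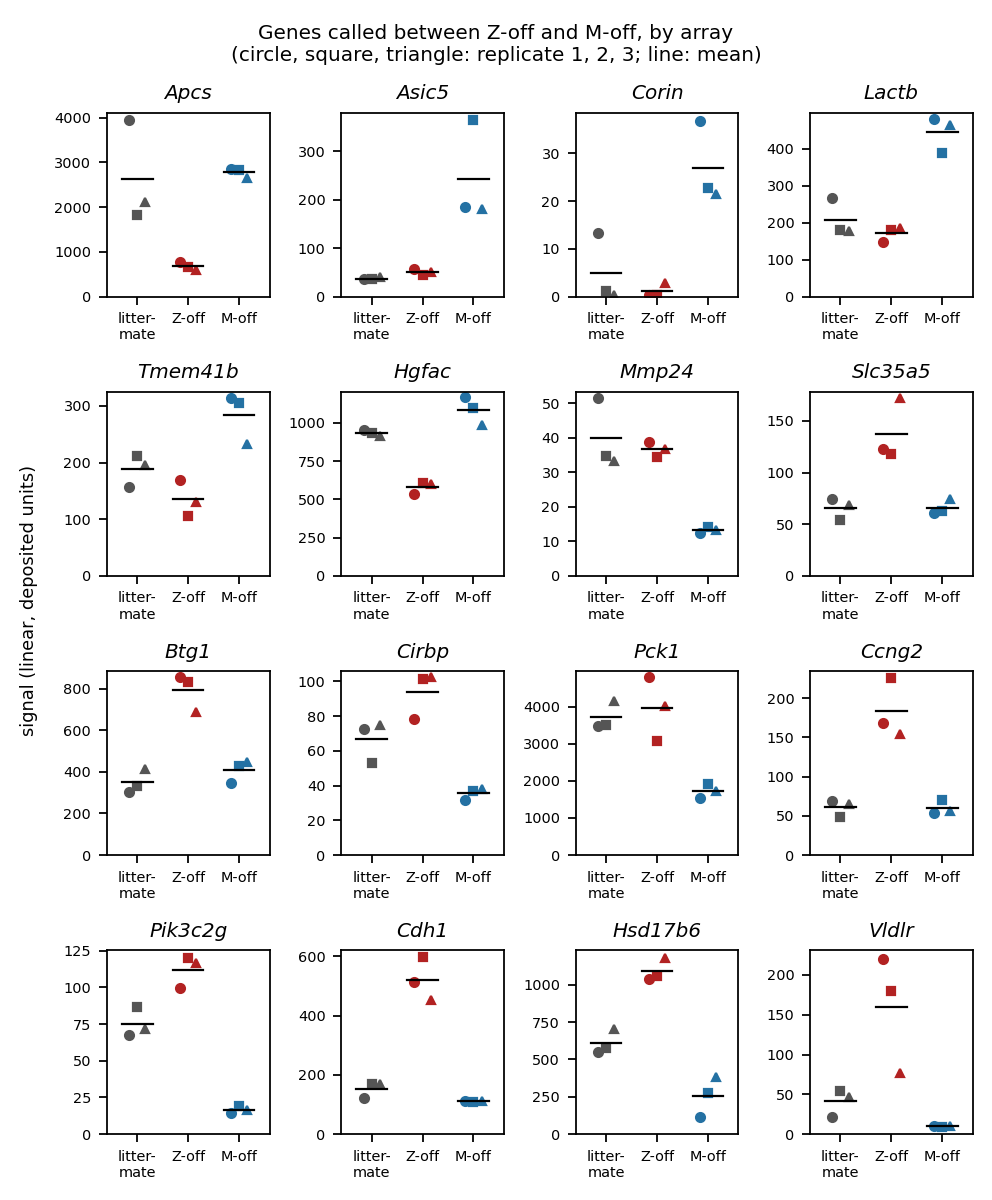
Signal (vertical axes from 0, linear deposited units) of the 16 genes called between Z-off and M-off, in littermates, Z-off and M-off; circles, squares and triangles are replicates 1, 2 and 3 and lines are group means. Z-off stands apart from both other groups for Apcs, Hgfac, Btg1 and Cdh1, and M-off stands apart for Asic5, Lactb and Pik3c2g.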

How the data were processed

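Each liver RNA was hybridised to an Affymetrix mouse array. The table that the authors deposited gives a linear intensity for each probe set, with a trimmed mean (2% of values at each end left out) of 150.06 to 150.08 on every array. RMA, with no version, is the tool that the submitters' processing notes name; as the values are linear and include 0, they were treated as scaled linear intensity values. For arrays, the number of samples limits the precision.

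Of 22690 probe sets, 20380 had 1 gene symbol in the platform annotation, 691 several and 1555 none, and 64 were controls. Each of 12393 genes was represented by its brightest probe set, judged by the mean of the 15 arrays. limma 3.58.1 (R 4.3.3) was run on log2(signal + 16), with 1 mean per group over all 15 arrays, two-sided, and Benjamini-Hochberg adjustment over all genes at 0.05; the procedure was tested on simulated data. There were 40 gene lists with 1355 entries, 1161 of them measured. Members and lists were chosen with earlier results of these data known.

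Named were the 12 largest rises and falls (4 against M-off) among called genes with a higher group mean of at least 100 and groups that do not overlap, up to 4 called members of a list by adjusted p, and Rgs16, the Serpina1 genes and the ER stress genes Hspa5, Dnajb9, Ddit3 and Xbp1. Further members of described lists are given by value, and genes given as not called or by role beyond this rule were chosen after their values were seen. Replicate numbers were checked for pairing: same-numbered Z-off and littermate arrays had residual correlations of -0.0256, -0.0298 and -0.0643, so the numbers were not taken to pair mice. Alternatives were the fit of the 2 groups alone, leaving out M-on or each array, quantile normalization, median centring, constants of 1 and 64, genes above the 40th percentile of signal, all probe sets, array weights, a robust fit with an intensity trend and a replicate block. Promoter windows are from RefSeq. Figures were drawn with matplotlib 3.10.9.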

Additional observations from a re-analysis of the deposited data

Results flagged for a closer look

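The difference of Z-off from littermates and that of M-off from littermates were compared by the direct test of Z-off minus M-off, and 16 genes passed. Higher in Z-off were Mmp24 by 0.84, Slc35a5 by 0.89, Btg1 by 0.93, Cirbp by 1.09, Pck1 by 1.17, Ccng2 by 1.38, Pik3c2g by 1.96, Cdh1 by 2.07, Hsd17b6 by 2.16 and Vldlr by 2.66 on the log2 scale. Lower, with negative values, were Apcs at -2.01, Asic5 at -1.89, Corin at -1.31, Lactb at -1.30, Tmem41b at -1.0 and Hgfac at -0.88.

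Pck1, phosphoenolpyruvate carboxykinase of gluconeogenesis, read 4804, 3078.5 and 4013 in Z-off, 1536, 1926 and 1738 in M-off and 3476, 3514 and 4168 in littermates, so that M-off was the group below the others. The call of Pck1 was lost without Z-off 1, M-off 1 or M-off 3, and its other probe set had 0.14. Btg1, an antiproliferative protein, read 859, 832 and 688 in Z-off, 345, 429 and 449 in M-off and 302, 332 and 414 in littermates, and Ccng2, an atypical cyclin, read 169, 226 and 155 in Z-off, 53.3, 70.5 and 55.5 in M-off and 69.2, 48.6 and 64.6 in littermates. For both, Z-off was the group above the others. The Btg1 call was lost without any array of Z-off and M-off other than Z-off 3. Hgfac read 537, 608 and 599 in Z-off, 1172, 1097 and 989 in M-off and 954, 932 and 916 in littermates, with Z-off below both. Corin was dim, at 0.4, 0.4 and 2.8 in Z-off, 36.7, 22.8 and 21.5 in M-off and 13.4, 1.2 and 0.4 in littermates, and its call was lost without any array of Z-off and M-off other than Z-off 3.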

How the results depend on the processing

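The count of genes higher in Z-off than littermates (507) was 1416 after median centring and 942 over all 20380 probe sets, and ranged from 299 to 396 with an array left out, lowest without Z-off 2 (299) and Z-off 1 (320). The count lower (2512) was 1008 after quantile normalization, 906 after median centring and 1331 among 7435 genes above the 40th percentile, where fewer genes were tested, and ranged from 1748 to 2224 with an array left out. The other alternatives moved these counts by less than 1.5 times. Against M-off, 10 higher genes became 16 in the fit of the 2 groups, 19 without the M-on arrays, 5 after quantile normalization, 5 after median centring, 19 with the constant 1, 18 with an intensity trend and 129 with array weights, and the 6 lower became 15 in the fit of the 2 groups, 10 above the 40th percentile and 100 with array weights. With an array left out the higher ranged from 3 to 29 and the lower from 1 to 23, both highest without Z-off 3. Beyond fewer genes or arrays, the cause was not tested. With a replicate block the 4 counts were 464, 2349, 7 and 5; the numbers do not pair the mice, and no array correlated best with its own number. Among the genes of the text that were called, Fabp1 was the one whose direction turned, at 0.03 after quantile normalization. Genes that were not called also turned against littermates under some setting, among them Dnajb9, Hlf, Cyp7a1, Saa1 and Fasn. The size of a dim gene's change depends on the added constant, and Per1 had -3.45 with the constant 1 and -1.23 with 64. With the same constants Pfkfb3 had -2.93 and -0.86 and Timp1 had -2.33 and -0.44.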

Other observations

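Further lists are given beside the 4.09% of all genes called higher and 20.3% called lower. Of autophagy and lysosome genes, 4 of 44 measured members were called higher and 2 lower, 2 and 0 of them under all 3 scalings. Lipa, lysosomal acid lipase, read 1054, 1021 and 874 in Z-off and 559, 554 and 628 in littermates (log2 difference 0.74, adjusted p = 0.00124). Tpp1, a lysosomal peptidase, read 1045, 937 and 865 in Z-off and 570.4, 548 and 615 in littermates (log2 difference 0.70, adjusted p = 0.00199), with its other probe set at 0.13. Of growth hormone and IGF genes, 2 of 23 measured members were called higher and 1 lower, 2 and 0 of them under all 3 scalings. The higher genes were Stat5b, a mediator of growth hormone signals, at 0.64 and Igfbp3, a carrier of IGF, at 1.18 on the log2 scale (adjusted p = 0.0244 and 0.0402). The first call was lost without Z-off 2, littermate 1 or littermate 2, and that of Igfbp3 without any array of the 2 groups other than Z-off 2. In male-type liver genes 1 of 17 measured members was called higher and 1 lower, 1 and 0 of them under all 3 scalings. In female-type liver genes 1 of 22 measured members was called higher and 1 lower, 1 and 0 of them under all 3 scalings. Of hepatocyte transcription factors, 0 of 24 measured members were called higher and 2 lower, 0 and 0 of them under all 3 scalings. Of hepatocyte transporters, 3 of 19 measured members were called higher and 0 lower, 1 and 0 of them under all 3 scalings. The gene called under all 3 was Abcc2, a canalicular exporter, which read 264, 297 and 125 in Z-off and 108, 112 and 95.4 in littermates (log2 difference 0.93, adjusted p = 0.0156), a call lost without Z-off 1, Z-off 2 or littermate 3.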
